A study of Mus musculus with 4 samples.

Results

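Migratory dendritic cells are described here in single-cell RNA profiles of mouse breast tumours, across 4 treatments. They were taken from the 26435 cells in which 200 or more genes were seen and under 20% of the UMIs (unique molecular identifiers, 1 per captured RNA molecule) were mitochondrial. A cell was a member with at least 1 UMI of Ccr7, at least 1 of Fscn1 and at least 5 of H2-Ab1, none of Cd3d, Cd3e, Cd3g, Cd79a or Cd79b, and fewer than 5 over C1qa, C1qb and C1qc. By this rule 145 cells were members. Of these, 50 came from the control library, 37 from phenformin, 24 from poly I:C and 34 from the combination.

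The tumours were of the MT4788 line in wild-type FVB mice and were collected on day 4. Leukocytes were enriched from dissociated tumours with magnetic beads against CD45, and 3′ libraries were made by droplet (10x Genomics). The control received Saline and PBS, the phenformin group Saline and Phenformin, the poly I:C group Poly I:C and PBS, and the combination Poly I:C and Phenformin. Poly I:C mimics the double-stranded RNA of viruses and triggers interferon production, while phenformin, a biguanide related to metformin, blocks complex I of mitochondrial respiration. All groups carried the same tumour line and no untreated or tumour-free tissue was analysed here. Each treatment is 1 library, so no difference between treatments has a replicate check, no test was possible, and every interval below covers counting error only.

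A dendritic cell that has taken up antigen in a tissue, whatever its earlier subtype, can enter a maturation state in which it moves towards the draining lymph node. Ccr7, the receptor for Ccl19 and Ccl21, guides it along lymphatic vessels, and Fscn1, an actin-bundling protein, shapes its long processes. Such cells also make the Ccr4 ligands Ccl17 and Ccl22, which draw regulatory and other T cells, display peptide on MHC class II, and carry both costimulatory and regulatory proteins; in tumours they are known under names such as mature regulatory dendritic cells or LAMP3-positive dendritic cells.

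The members fell apart by RNA of 7 keratin genes and 12 stromal genes. In 120 cells either set had at most 5 UMIs, whereas in 25 cells 1 of the sets had at least 54. Of the 25, 23 were rich in keratins and 2 in stromal RNA, 13 came from control, 5 from phenformin, 3 from poly I:C and 4 from the combination, and their median depth was 32389 to 36984.5 UMIs a cell by library. In 22 of them Ccr7 was met by a single UMI, 21 had no UMI of Ptprc (the CD45 gene), and 16 had none of Ccl22, Ccl17 and Cacnb3, the 3 markers of the class that the rule did not use. They held 56.0% of the members' UMIs in control, 33.0% in phenformin, 27.9% in poly I:C and 37.2% in the combination. The label of dendritic cells was not borne out by the markers in most of these 25 cells, so levels are given below for the other 120, a choice made after their values were seen, with the value over all 145 cells beside a ratio or count that it moves across 2-fold or by more than 1.5 times. Whether the 25 are doublets of a tumour and a dendritic cell was not tested.

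The remaining 120 cells carried the markers of the class. There were 37 in control, 32 in phenformin, 21 in poly I:C and 30 in the combination, with 355479, 433432, 220155 and 248612 UMIs in turn and a median of 8912, 12470.5, 9365 and 7884 UMIs a cell. All 3 of Ccl22, Ccl17 and Cacnb3 were seen in 54 of the 120 cells, 2 in 38, 1 in 17 and none in 11. Ccl22 was detected in 73.0%, 84.4%, 85.7% and 63.3% of them in the same order, against 1.27% to 5.81% of C1q macrophages (median depth 8060.5 to 12589 UMIs) and 0.192% to 1.37% of T cells (4621 to 6654.5 UMIs). Cacnb3, a subunit of voltage-gated calcium channels, was detected in 86.5%, 81.3%, 81.0% and 73.3%, against at most 0.738% of macrophages and 1.23% of T cells. Markers of other types were low: keratin and other tumour epithelial genes summed to 29.99 to 60.3 CPM (UMIs of the gene per 1000000 UMIs of the summed cells), of which Epcam gave 22.5 to 56.3, and T and NK cell genes to 83.1 to 113 CPM, of which Cd8a, a gene that type 1 dendritic cells also use, gave 24.1 to 57.7. Krt8, Krt18, Cd2 and Lat were at 0 in every library. Among the 120 cells, 2 had 5 or more UMIs of Siglech, a plasmacytoid dendritic cell gene, 5 had 10 or more of Lyz2, Apoe and Csf1r, and 4 had 5 or more of Mki67 and Top2a.

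The criteria set the membership, and their values are given only as a description. Members had a median of 23 UMIs of Ccr7, 9 of Fscn1 and 35 of H2-Ab1, and in the 120 cells these medians were 25.5, 11 and 39.5. Just outside the rule, 131 cells missed H2-Ab1 alone and 107 of them carried at least 2 of the 3 other markers. Another 431 cells missed Fscn1 alone, with 88 such cells, and 1119 missed Ccr7 alone, with 17. The limit on C1q kept out 37 cells, 15 of them with at least 2 of the markers, and the limit on Cd3 genes 39 cells, 12 of them with as many. Cells with the other markers but too few H2-Ab1 UMIs, 107 in all, were thus as frequent as such cells among the 120 members, which numbered 92.

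Migratory dendritic cells were a small share of every library and a smaller one in the libraries with poly I:C. By the rule the share of kept cells was 0.820% in control (95% Clopper-Pearson interval 0.609% to 1.08%), 0.679% in phenformin (0.478% to 0.934%), 0.363% in poly I:C (0.232% to 0.539%) and 0.411% in the combination (0.285% to 0.574%). The intervals of control and poly I:C did not meet. Over the 120 cells the shares were 0.607% (0.428% to 0.836%), 0.587% (0.402% to 0.827%), 0.317% (0.196% to 0.485%) and 0.363% (0.245% to 0.518%), in the same order of libraries, and the interval of control met those of the other 3. Both libraries without poly I:C lay above both libraries with it, and within each of these pairs the intervals overlapped. With every cell thinned to 3000 UMIs the gap was smaller, at 0.488% (0.310% to 0.732%), 0.495% (0.310% to 0.748%), 0.342% (0.206% to 0.533%) and 0.355% (0.223% to 0.537%), and all 4 intervals overlapped.

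**Figure D1:**
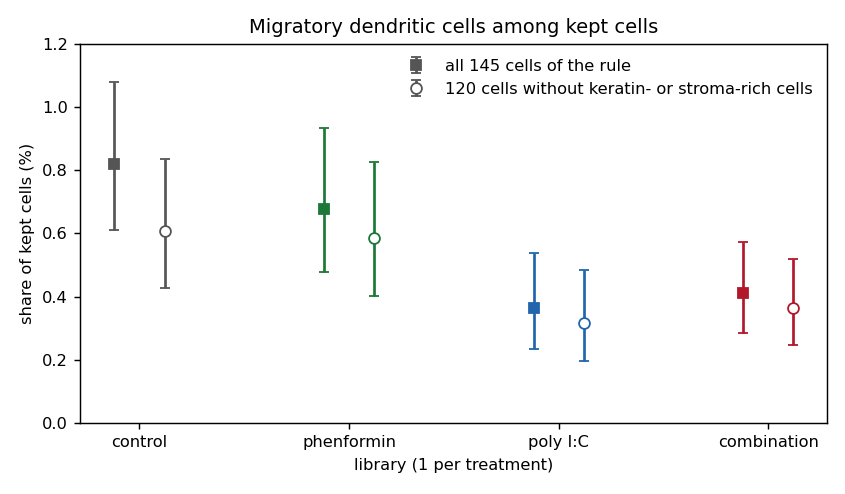
Share of kept cells that were migratory dendritic cells (%), by library, with 95% Clopper-Pearson intervals as bars (counting error only, 1 library per treatment). Filled squares are all 145 cells of the rule and open circles the 120 cells without keratin- or stroma-rich cells; both lie between 0.317% and 0.820%, with the libraries with poly I:C below the others.

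Set beside the other conventional dendritic cells of the same tumours, their weight went the other way. Type 1 conventional dendritic cells, which cross-present antigen to CD8 T cells, numbered 15 in control, 19 in phenformin, 9 in poly I:C and 7 in the combination by a UMI rule on their own genes. Type 2 cells, which chiefly prime CD4 T cells, numbered 39, 56, 14 and 13. The 120 cells thus made up 40.7% of the 3 kinds in control (30.5% to 51.5%), 29.9% in phenformin (21.4% to 39.5%), 47.7% in poly I:C (32.5% to 63.3%) and 60.0% in the combination (45.2% to 73.6%). The intervals of phenformin and the combination did not meet, and the others overlapped. A lower share of all cells and a higher share of dendritic cells were both measured in the combination, since the conventional cells there were fewer still.

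Levels of single genes were compared by summing UMIs over the cells of a library. A gene was compared where the higher library had at least 50 CPM and 30 UMIs, and it was counted as higher or lower at a ratio of at least 2. Ccl22 led the genes that stood above type 1 and type 2 conventional dendritic cells, C1q macrophages and T cells of the same library, ranked over 1714 genes by the smallest ratio over the 4 libraries. As members were selected by related genes this ranking is a description. Ccl22 was at least 20.03 times its level in any of these other cells, Il12b (the p40 chain of interleukins 12 and 23) 18.5 times, Tbc1d4 (a GTPase-activating protein for Rab proteins) 13.7 times, Cacnb3 13.5 times, and Il4i1 (an amino acid oxidase that restrains T cells) 11.96 times. Next came Eno3, a muscle-type enolase, at 8.07 times, then Adgrg6, Fam177a, Nudt17 and Poglut1 between 6.12 and 8.04 times, and then Relb, a subunit of NF-kB, at 6.11 times and Nr4a3, a nuclear receptor of maturing dendritic cells, at 5.57 times. Ccl17 did not belong to this set: in the combination it was 475 CPM in the members and 791 CPM in type 2 conventional cells, a ratio of 0.5998.

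**Figure D2:**
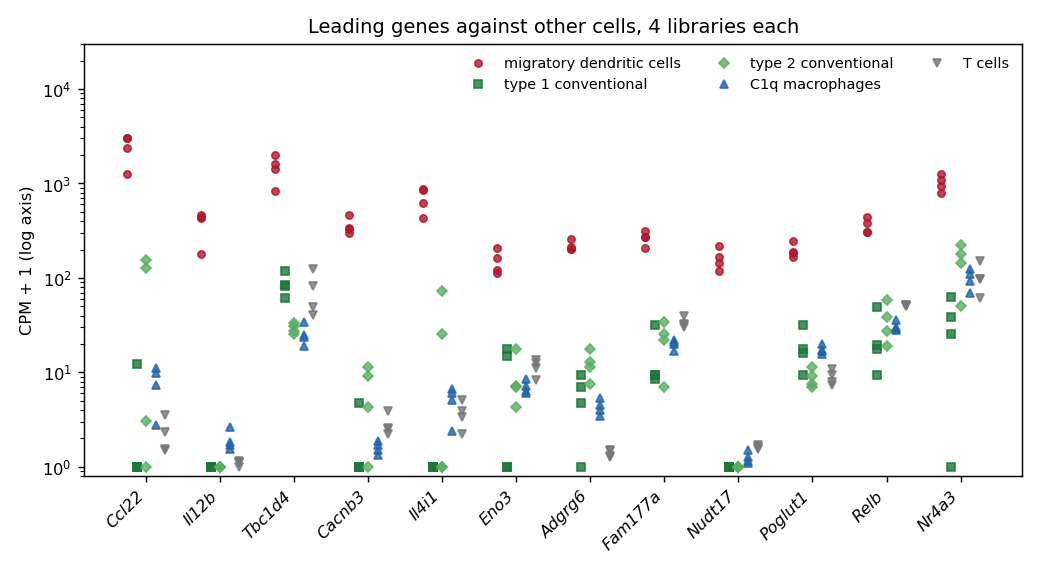
Level (CPM + 1, log axis) of the 12 genes with the highest smallest ratio, in migratory dendritic cells (120 cells), type 1 and type 2 conventional dendritic cells, C1q macrophages and T cells. Each point is 1 of the 4 libraries, and for Ccl22 the members' points lie between 1251 and 3052 CPM.

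Of genes of the earlier subtypes, Xcr1 and Cd209a were low. Not all were: 10 type 1 genes were abundant enough to be compared in combination over phenformin. Xcr1, the chemokine receptor of type 1 cells, was at 36.6 CPM in control, 27.7 in phenformin, 9.1 in poly I:C and 0 in the combination, against 250 to 638 CPM in type 1 cells. Cd209a, a lectin of type 2 cells, was at 2.8, 4.6, 0 and 0 CPM, against 162 to 638 CPM in type 2 cells. Xcr1 was among the genes that chose the type 1 cells, and Cd209a among those that chose the type 2 cells. Their levels in those cells therefore follow from the choice and are given only as a description. Batf3, a transcription factor of type 1 cells, was kept at 104 to 169 CPM. In the combination 4 of 10 compared type 1 genes were lower than with phenformin alone, namely Btla, Itgae, Naaa and Wdfy4, beside 6.66% of all genes lower there, and none was higher. In the full set of 145 cells 3 were lower, without Itgae.

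Over all genes compared in the 120 cells, poly I:C over control had 4.14% higher and 11.1% lower of 1619 genes, with a median log2 ratio of -0.20. Combination over phenformin, the same addition of poly I:C on top of phenformin, had 4.11% higher and 6.66% lower of 1728, with a median of -0.09. Phenformin over control had 3.64% higher and 3.35% lower of 2032 (median -0.03), and combination over poly I:C 7.49% higher and 3.87% lower of 1241 (median 0.02). Combination over control had 4.28% higher and 7.25% lower of 1682 (median -0.13). With all 145 cells, 2.61% were higher and 14.7% lower of 2718 genes in poly I:C over control, 3.59% and 4.45% of 2649 in combination over phenformin, 2.11% and 6.53% of 3229 in phenformin over control, 6.48% and 2.24% of 2005 in combination over poly I:C, and 2.72% and 7.58% of 2904 in combination over control. The lower genes against control were more frequent with the keratin-rich cells in, and control was the library with most of them. Every count of members of a gene list below is to be read against these shares.

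Both Ccr4 ligands were highest in the libraries with 1 agent, and Ccl22 was lowest in the combination. Ccl22 (chr8:94745590-94751699, plus strand, mouse build GRCm38) was at 2357 CPM in control (2200 to 2523, exact Poisson interval), 3048 in phenformin (2886 to 3217), 3052 in poly I:C (2826 to 3292) and 1251 in the combination (1116 to 1398). It was 1.29 times as high in poly I:C as in control (1.17 to 1.43) but 0.410 times as high in the combination as in phenformin (0.362 to 0.465). The first of these ratios was 2.01 over all 145 cells and the second 0.385. Cells with a Ccl22 UMI numbered 27 of 37, 27 of 32, 18 of 21 and 19 of 30. After thinning every cell to 3000 UMIs, which left out 3 control cells, the detected share was 76.5%, 75.0%, 76.2% and 56.7%, so the lower value in the combination was also seen at equal depth.

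Ccl17, encoded beside Ccl22 (chr8:94810453-94812036, plus strand), was likewise highest in the libraries with 1 agent, with wider steps. It was at 622 CPM in control (542 to 709), 1993 in phenformin (1863 to 2131), 3834 in poly I:C (3579 to 4101) and 475 in the combination (393 to 568). Poly I:C over control was 6.17 (5.31 to 7.18), and combination over phenformin 0.238 (0.195 to 0.289). Phenformin over control was 3.21 (2.76 to 3.73), and combination over poly I:C 0.124 (0.101 to 0.150). Each agent alone was thus above control, and the addition of either to the other was below that other alone. A single cell held 68.3% of the control library's Ccl17 UMIs, and without the top cell of each library the 4 ratios were 14.3, 0.210, 6.32 and 0.0930. Which of control and the combination was lower turned on these cells: combination over control was 0.763 with them and 1.33 without. Ccl17 was detected in 17 of 37 control cells, 21 of 32, 17 of 21 and 12 of 30, and in at most 13.6% of macrophages and 1.25% of T cells. Thinned to 3000 UMIs, it was detected in 29.4%, 50%, 71.4% and 26.7% of members. In type 2 conventional cells the order differed, at 8.2 CPM in control, 764 in phenformin, 1896 in poly I:C and 791 in the combination, so Ccl17 there was as high in the combination as in phenformin.

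Within each library the cells with more Ccl22 tended to have more Ccl17. Spearman's rho between them over cells was 0.43 in control (37 cells), 0.46 in phenformin (32), 0.38 in poly I:C (21) and 0.51 in the combination (30). These are descriptions over cells that share a library and vary in depth.

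Ccl5, a chemokine that draws effector T cells and NK cells, had another pattern. It was at 1809 CPM in control (1672 to 1954), 1670 in phenformin (1551 to 1797), 822 in poly I:C (707 to 951) and 9501 in the combination (9121 to 9892). The combination stood apart from the other 3 libraries, at 5.69 times phenformin (5.23 to 6.19) and 11.6 times poly I:C (9.93 to 13.5). Poly I:C over control was 0.455 (0.383 to 0.537), a ratio that was 0.776 over all 145 cells and 0.760 as a mean over cells. The higher level in the combination was not of 1 cell: 8 of its 30 cells had at least 10000 CPM, against 1 of 37 in control, 3 of 32 in phenformin and 1 of 21 in poly I:C, and without the top cell combination over phenformin was 6.47. Ccl5 was also present in other cells of the tumours, at 590 CPM in macrophages of control, 987 with phenformin, 1755 with poly I:C and 3536 in the combination, and at 1049, 1798, 4988 and 3764 CPM in T cells. Those are below the members' 9501 CPM in the combination, and above the members' 822 CPM in poly I:C. The part of RNA from such cells in the members' level was not tested.

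**Figure D3:**
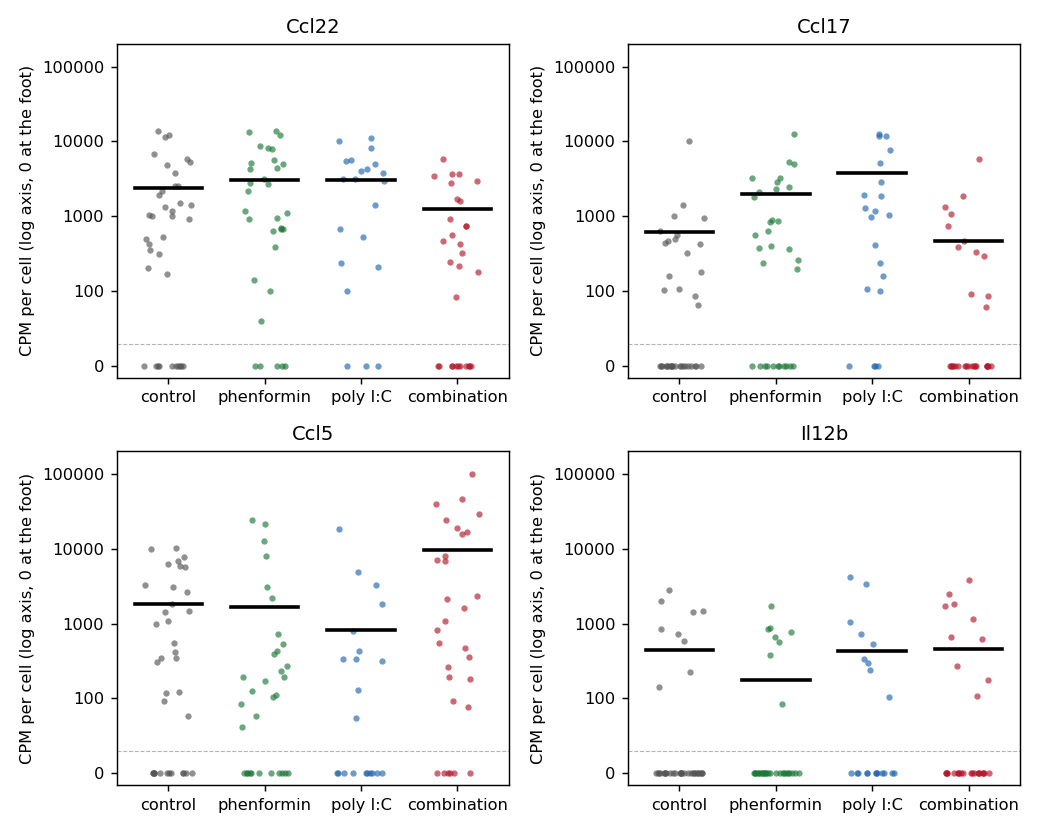
Level (CPM, log axis, with cells at 0 set at the foot below the dashed line) of Ccl22, Ccl17, Ccl5 and Il12b in each of the 120 cells, by library. Points are cells, the bar is the library's level over summed UMIs, and for Ccl5 8 of 30 combination cells lie at or above 10000 CPM.

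Other chemokines were scarcer. Of 21 chemokine genes in the files, 7 were compared in poly I:C over control, with 4 higher (Ccl17, Cxcl10, Cxcl2 and Cxcl9) and 1 lower (Ccl5), and a median log2 ratio of 1.49. In combination over phenformin 8 were compared, with 2 higher (Ccl5 and Ccl6) and 4 lower (Ccl17, Ccl22, Ccl24 and Cxcl2), and a median of -0.96. Over all 145 cells the first had 2 higher (Ccl17 and Ccl22) and 2 lower (Cxcl1 and Cxcl9) of 8, and the second 3 higher, Cxcl10 among them, and 4 lower of 10, with a median of 0.02. Cxcl9, an interferon-induced ligand of Cxcr3, was at 158 CPM in control, 667 in phenformin, 513 in poly I:C and 430 in the combination. That order depends on the keratin-rich cells: poly I:C over control was 3.26 (2.34 to 4.57) in the 120 cells and 0.449 in all 145, and phenformin over control 4.23 (3.17 to 5.74) and 0.457. Ccl24, an eotaxin that is abundant in macrophages, was at 81.6 CPM in control, 833 in phenformin, 0 in poly I:C and 8.04 in the combination, in 11, 16, 0 and 1 cells. Cxcl16, the membrane-bound ligand of Cxcr6, differed by less than 2-fold, at 546, 468, 763 and 704 CPM.

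Cytokine genes were few. Il12b was at 444 CPM in control (378 to 519), 178 in phenformin (140 to 222), 432 in poly I:C (349 to 528) and 463 in the combination (382 to 555). It was lower in phenformin than in the other 3 libraries, with phenformin over control at 0.400 (0.300 to 0.528) and combination over phenformin at 2.60 (1.93 to 3.52). The first ratio was 0.605 over all 145 cells and 0.669 as a mean over cells, on the other side of 2-fold. Il12b came from 9, 8, 9 and 10 cells in turn, and it was at or under 4155 CPM in each cell. Il12a, the p35 chain needed for interleukin 12, was at 2.8 CPM in control and 0 elsewhere, and Il23a, Il10, Ifnb1 and Il6 were at 0 or under 21 CPM. Il1b, at 468 to 647 CPM, differed by less than 2-fold in every comparison.

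Costimulation was kept in all 4 libraries. Cd86, a ligand of Cd28 and Ctla4, was at 408 CPM in control, 475 in phenformin, 781 in poly I:C and 378 in the combination. Poly I:C over control was 1.92 (1.53 to 2.41) in the 120 cells and 2.94 over all 145, and combination over poly I:C was 0.484 (0.372 to 0.626). Cd40, the receptor for T cell help, was at 236, 256, 263 and 310 CPM, and Cd80 at 64.7, 66.9, 123 and 88.5. Of 9 costimulation genes compared in poly I:C over control, 1 was higher (Tnfrsf18, at 141 against 47.8 CPM) and 1 lower (Tnfrsf9, at 40.9 against 138 CPM), while over all 145 cells Cd86 was higher too. In combination over phenformin 1 of 9 was lower, namely Tnfsf4, the Ox40 ligand, at 40.2 against 132 CPM, and none was higher.

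Genes that restrain T cells were also present. Cd274, which encodes PD-L1, was at 374 CPM in control, 450 in phenformin, 273 in poly I:C and 265 in the combination, and Pdcd1lg2, which encodes PD-L2, at 160, 203, 263 and 133. Neither reached 2-fold in combination over phenformin. In poly I:C over control they were 0.728 and 1.64 in the 120 cells, and 1.28 and 2.69 in all 145. Il4i1 was at 861, 625, 432 and 873 CPM, 2.02 times as high in the combination as in poly I:C (1.74 over all 145 cells). Aldh1a2, which makes retinoic acid, was at 127, 565, 40.9 and 68.4 CPM, but its 3 top cells held 88.9% to 100% of its UMIs in every library, so these levels describe single cells.

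The maturation programme is a list of genes known from migratory dendritic cells, and its 2 genes of the rule were left out of the counts and medians. It gave 0 higher and 7 lower of 32 compared in poly I:C over control, with a median log2 ratio of -0.41 against -0.20 over all genes. The lower genes were Arhgap31, Ccl5, Epsti1, Gyg, Socs2, Tbc1d4 and Tmem123. Tmem123, a surface mucin of dendritic cells, was at 2054 CPM in control, 1306 in phenformin, 904 in poly I:C and 1585 in the combination, with poly I:C over control at 0.440 (0.374 to 0.516). Tbc1d4 was at 2025, 1433, 836 and 1617 CPM, with the same ratio at 0.413 (0.349 to 0.486). With all 145 cells counted the list was at 2 higher and 1 lower of 29, with a median of 0.16, and Tmem123 and Tbc1d4 were at 0.708 and 0.694. Both stayed below control there but not by 2-fold, while Arhgap31 was at 0.481.

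With phenformin present the same list leaned the other way. In combination over phenformin it had 4 higher and 0 lower of 31, with a median of 0.18 in the 120 cells and 0.10 in all 145. Those higher were Ccl5, Epsti1, Gadd45b and Zmynd15. Epsti1, an interferon-induced gene, was at 715, 549, 259 and 1581 CPM, which is 0.362 (0.267 to 0.485) for poly I:C over control, 0.962 over all 145 cells, and 2.88 (2.44 to 3.40) for combination over phenformin. Gadd45b, a stress-induced gene downstream of NF-kB, was at 633, 505, 527 and 1319 CPM, with combination over phenformin at 2.61 (2.19 to 3.11). In combination over poly I:C 6 of 29 were higher and none lower, and over all 145 cells 3 were higher and 1, Cd200, was lower.

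**Figure D4:**
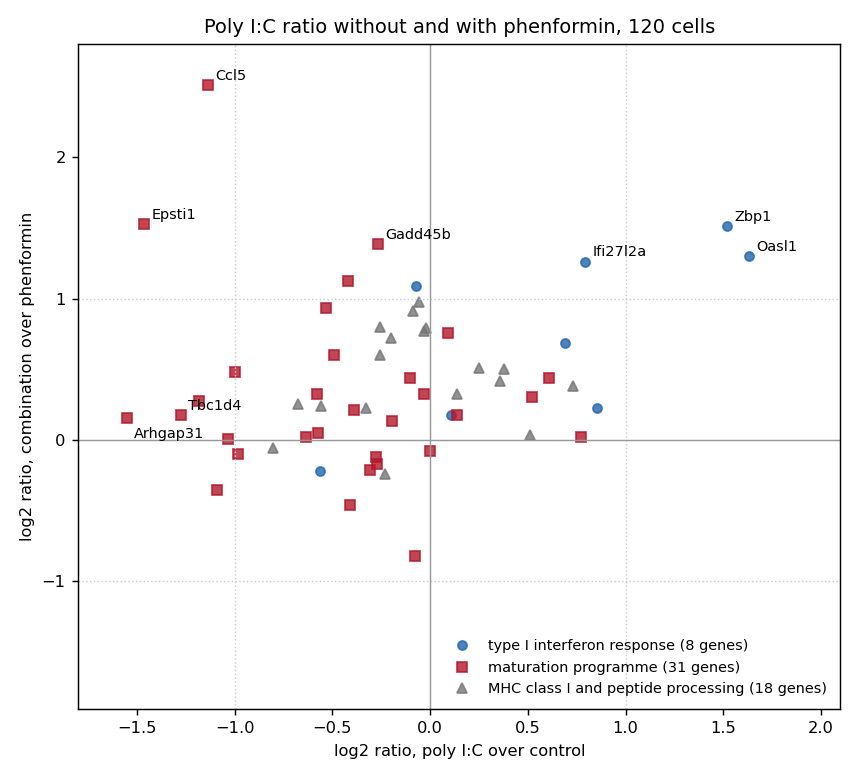
Log2 ratio of poly I:C over control (x) against combination over phenformin (y) for genes compared in both, in the 120 cells; dotted lines mark 2-fold, and the comparisons share no library. Type I interferon genes (circles) lie mostly at upper right, with Zbp1 past 2-fold on both axes, while Ccl5 and Epsti1 of the maturation programme (squares) lie at upper left.

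In a list of type I interferon genes, some were at least 2-fold higher with poly I:C in the 120 cells. None of the list was lower by as much, although the interferon-induced Epsti1, outside it, was at 0.362 in poly I:C over control. Of 54 such genes in the files few were abundant enough: 10 were compared in poly I:C over control, with 3 higher (Cxcl10, Oasl1 and Zbp1) and none lower, and a median log2 ratio of 0.74. In combination over phenformin 12 were compared, with 8 higher (Ifi27l2a, Ifi35, Irf7, Isg15, Ms4a4c, Oasl1, Phf11b and Zbp1) and none lower, and a median of 1.17. Their summed level was 4245 CPM in control, 3864 in phenformin, 6332 in poly I:C and 6287 in the combination. Over all 145 cells the first comparison had 2 higher and 2 lower of 16, with a median of -0.11, and the second 9 higher and none lower of 21, with a median of 0.94. The higher median on phenformin was therefore present in both sets of cells, and the one without phenformin only without the keratin-rich cells.

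A single cell weighed on the poly I:C library. It held 31.9% of the UMIs of the list there, 444 of 1394, among them all 15 of Ifit1, all 14 of Ifit2, all 5 of Ifit3, 27 of 42 of Cxcl10 and 30 of 46 of Oasl1. It also had 65 UMIs of Ccr7 and 189 of Cd74, and 1 of Lyz2. Without it the list was at 4646 CPM in poly I:C, against 3861 in control without the top cell there, 3433 in phenformin and 5717 in the combination. The median cell was at 2844 CPM in control, 2801 in phenformin, 4200 in poly I:C and 4121 in the combination. Cells of the 2 libraries with poly I:C were thus higher at the median as well, while the Ifit genes and most of Cxcl10 and Oasl1 in poly I:C came from the 1 cell.

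Named interferon genes differed in how far they followed poly I:C. Zbp1, a sensor of Z-form nucleic acid, was at 50.6 CPM in control, 50.8 in phenformin, 145 in poly I:C and 145 in the combination, a ratio of 2.87 (1.56 to 5.43) and 2.85 (1.63 to 5.09). When the 25 cells were kept in, these were 1.01 and 1.71. Ifi27l2a was at 653, 621, 1131 and 1488 CPM, 1.73 (1.44 to 2.08) and 2.40 (2.04 to 2.82), the second 1.88 over all 145 cells. Irf7, the transcription factor that amplifies interferon production, was at 90.0, 99.2, 114 and 278 CPM, so it was higher in the combination only, at 2.798 times phenformin (1.88 to 4.19). Isg15, a ubiquitin-like protein, was at 650, 265, 618 and 563 CPM. Over summed UMIs it was not higher in poly I:C than in control, at 0.951. It was 0.408 (0.324 to 0.513) in phenformin over control (0.544 over all 145 cells) and 2.12 (1.65 to 2.74) in combination over phenformin. In control 3 cells held 79.7% of the Isg15 UMIs, and without the top cells phenformin over control was 0.516. Cells with an Isg15 UMI numbered 13 of 37, 17 of 32, 14 of 21 and 23 of 30. The median cell was at 0, 44.8, 236 and 198 CPM, so by cells poly I:C was above control. Bst2, or tetherin, was at 442, 457, 799 and 535 CPM.

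Promoters are shown for Isg15, Phf11b and Bst2, because among the interferon genes compared in combination over phenformin these 3 matched a common core of the interferon-stimulated response element. Cxcl10, compared in poly I:C over control, held a match as well and is not shown. The 150 bases before the start site are given 5′ to 3′ on the gene's strand, from RefSeq in GRCm38.p6, with each match to GAAANNGAAA on either strand in capitals, overlapping matches joined. Isg15 lies at chr4:156200819-156200968 (minus strand), Phf11b at chr14:59341331-59341480 (minus) and Bst2 at chr8:71537473-71537622 (minus).
Isg15: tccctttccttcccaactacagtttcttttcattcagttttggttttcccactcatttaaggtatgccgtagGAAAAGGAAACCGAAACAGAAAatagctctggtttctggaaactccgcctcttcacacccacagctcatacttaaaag
Phf11b: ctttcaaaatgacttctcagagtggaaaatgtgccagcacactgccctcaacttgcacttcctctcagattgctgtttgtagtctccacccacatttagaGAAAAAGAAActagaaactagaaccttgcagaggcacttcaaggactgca
Bst2: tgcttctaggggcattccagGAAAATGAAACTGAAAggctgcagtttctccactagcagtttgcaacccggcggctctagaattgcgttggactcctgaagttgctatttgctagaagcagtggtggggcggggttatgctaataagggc
Isg15 had 3 matches, the nearest ending 56 bases before its start, Phf11b 1 match ending 40 bases before, and Bst2 2 matches, the nearest 114 bases before. Over windows from 250 bases before to 50 after the start, 3.44% of 32851 promoters in the table held a match, and 22 of the 40 type I interferon genes with an entry did (55.0%). Among the 8 genes higher in combination over phenformin, 6 had an entry and 2 of them a match, Isg15 and Phf11b. A match is only a match of letters.

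Antigen presentation genes differed little between libraries. Cd74, the invariant chain, was at 11379 CPM in control, 14321 in phenformin, 13295 in poly I:C and 12614 in the combination, and H2-Aa at 5553, 5987, 4606 and 5688. Of 23 MHC class I and peptide processing genes, 18 were compared in poly I:C over control and in combination over phenformin, and none reached 2-fold in either. Their medians were -0.07 and 0.46, against -0.20 and -0.09 over all genes. H2-D1 was at 6782, 5849, 6632 and 9967 CPM and B2m at 5885, 4647, 5124 and 7650, both highest in the combination. Of MHC class II genes, Ctsl, a protease that degrades the invariant chain, was 3.85 in poly I:C over control and 0.155 in combination over phenformin, but 1.38 and 0.735 over all 145 cells.

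Some genes went together over the cells of each library. Cells with more Fscn1 had more Tmem123, with Spearman's rho over cells of 0.54 in control, 0.65 in phenformin, 0.75 in poly I:C and 0.65 in the combination. Cells with more Tmem123 had less Cd74, at -0.41, -0.47, -0.45 and -0.50, and cells with more Ccl5 had less Cd74, at -0.39, -0.58, -0.67 and -0.43. H2-Aa went with Cd74, at 0.80, 0.76, 0.56 and 0.82. The sign of each of these relations was the same in all 4 libraries, although Fscn1 was part of the rule. Other pairs had no common sign: Ccl5 with Ccl22 was at 0.20, 0.04, -0.01 and 0.32, and Ccr7 with Cd74 at -0.07, -0.34, 0.02 and -0.13.

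Receptors that steer migration were unequal. Ccrl2, a decoy receptor that binds chemerin, was at 70.3 CPM in control, 122 in phenformin, 86.3 in poly I:C and 483 in the combination. It was 3.95 times as high in the combination as in phenformin (2.83 to 5.56) and 5.59 times as high as in poly I:C (3.43 to 9.61), in 13 of 37, 18 of 32, 9 of 21 and 21 of 30 cells. Gpr183, a receptor for oxysterols, was at 360, 388, 154 and 366 CPM, lowest in poly I:C, at 0.429 of control (0.702 over all 145 cells). Cxcr4 was at 174, 71.5, 123 and 193 CPM, lowest in phenformin. Ptger4, a prostaglandin receptor, was at 332, 185, 168 and 165 CPM, highest in control. Of the migration and cytoskeleton genes 2 of 21 were lower in poly I:C over control (Cd44 and Marcks) and 2 of 24 in combination over phenformin (Adam8 and Itgae), with none higher. Over all 145 cells Cd44 alone was lower in the first and Adam8 alone in the second.

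NF-kB is a driver of dendritic cell maturation. Of its genes, in poly I:C over control 3 of 18 were lower, Rela, Tnfaip3 and Tnip2, beside 11.1% of all genes lower there, and none was higher, whereas over all 145 cells none was lower and Relb was higher. In combination over phenformin Tnip1 was higher and Nfkb1 lower. Nfkb1 was at 700 CPM in control, 653 in phenformin, 518 in poly I:C and 310 in the combination. The last is 0.442 of control (0.54 over all 145 cells) and 0.474 of phenformin. Relb, another NF-kB subunit gene, was at 304, 309, 436 and 382 CPM.

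Mitochondrially encoded subunits of complex I, the enzyme that phenformin inhibits, were highest in the phenformin library. The 7 genes summed to 3741 CPM in control, 7131 in phenformin, 4642 in poly I:C and 3596 in the combination. In phenformin over control 3 of 6 compared were higher (mt-Nd1, mt-Nd2 and mt-Nd3) and none lower, with a median log2 ratio of 0.94, and in combination over phenformin 4 of 6 were lower, with a median of -1.04. Among all 145 cells the first had 1 of 7 higher with a median of 0.10 and the second 1 of 7 lower with a median of -0.60. Mt-Nd1 was at 1221, 2799, 1835 and 1356 CPM, with phenformin over control at 2.29 (2.05 to 2.56) in the 120 cells and 1.10 in all 145. The median mitochondrial share of a cell's UMIs moved with it, at 2.11% in control, 3.20% in phenformin, 2.51% in poly I:C and 1.97% in the combination, as did the median depth given above. Their part in the result was not tested. In type 1 and type 2 conventional cells, macrophages and T cells, phenformin over control had medians of 0.21, 0.20, 0.15 and 0.04 for these genes. Of the 29 compared nuclear genes of complex I, 1 was higher in phenformin over control, Ndufb2, and none lower, with a median of 0.26, and over all 145 cells none of 35 was higher.

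Few genes were shared between the comparisons that tested the same agent on both backgrounds. These pairs share no library. Of 1376 genes compared for poly I:C on both, 58 were higher without phenformin and 41 with it, and 5 were higher in both, which is 8.62% and 12.2% of the lists. They were Gngt2, Lyz2, Oasl1, Rrad and Zbp1. Lower in both were Aldh1a2, Fmnl2 and Klf3, which is 2.68% of 112 and 5.36% of 56. Among all genes compared in the 120 cells, 4.14% of 1619 were higher and 11.1% lower in poly I:C over control. In combination over phenformin 4.11% of 1728 were higher and 6.66% lower. The shared parts of the higher lists lay above these shares, and those of the lower lists below them. Klf3, a transcriptional repressor, was at 132 CPM in control, 115 in phenformin, 45.4 in poly I:C and 52.3 in the combination, and Fmnl2, a formin that extends actin filaments, at 124, 106, 27.3 and 52.3. Gngt2, a G protein subunit, was at 127, 155, 332 and 318 CPM. With all 145 cells 7 genes were higher in both, Lyz2, Oasl1 and Rrad among them but neither Gngt2 nor Zbp1, and 18 were lower, none of them Aldh1a2, Fmnl2 or Klf3 and led by Mgp and Col4a6, genes of the extracellular matrix. Opposite in the pair were 13 genes of the 120 cells, among them Ccl17, Ccl5, Epsti1, Cxcl2 and Ctsl.

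Of these genes Rrad, Lyz2, Oasl1 and Aldh1a2 rested in part on single cells. Without the top cells Aldh1a2 was 0.570 instead of 0.323 in poly I:C over control, short of 2-fold. In combination over phenformin it was 0.0399 instead of 0.121. Rrad, a small GTPase, was at 39.4, 62.3, 173 and 298 CPM, but 1 cell held 76.3% of its UMIs in poly I:C, and without the top cells poly I:C over control was 1.32 instead of 4.38. Lyz2, lysozyme of monocytes and macrophages, was at 30.9, 196, 395 and 885 CPM, with 18.2%, 68.2%, 87.4% and 55.9% of UMIs in 1 cell, and without the top cells its ratio for poly I:C over control was 1.97 instead of 12.8. For Oasl1 the same ratio was 1.36 instead of 3.095, while its ratio for combination over phenformin stayed at 2.44. Gngt2 and Zbp1 were still at 2.51 and 2.62 in poly I:C over control without the top cells. The 20 monocyte and macrophage genes summed to 546 CPM in control, 743 in phenformin, 1258 in poly I:C and 1955 in the combination. At 0 were 6 of them in control, 1 in phenformin, 6 in poly I:C and 3 in the combination, with Gpnmb at 0 in all and Adgre1, which encodes F4/80, at 0 in control and poly I:C and at 2.3 and 20.1 CPM in the others. Their part in the other genes higher with poly I:C was not tested.

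For phenformin, 1202 genes were compared on both backgrounds. Without poly I:C 24 were higher and with it 76, and 6 were higher in both, which is 25.0% and 7.89% of the lists. They were Cebpb, Dusp2, Jdp2, Lyz2, Ms4a6c and Prdx5. Among all genes compared in the 120 cells, 3.64% were higher and 3.35% lower in phenformin over control, and 7.49% and 3.87% in combination over poly I:C. Prdx5, a mitochondrial peroxiredoxin, was at 73.1 CPM in control, 182 in phenformin, 114 in poly I:C and 346 in the combination, so both libraries with phenformin lay above both without it. Jdp2, a repressor of AP-1 targets, was at 56.3, 129, 72.7 and 205 CPM, and Dusp2, a phosphatase of MAP kinases, at 64.7, 145, 68.1 and 169. Cebpb, a transcription factor of myeloid and stress responses, was at 42.2, 120, 49.96 and 265 CPM, a ratio of 2.84 and 5.31 that became 0.900 and 1.05 over all 145 cells. There Prdx5, at 1.71 in phenformin over control, and Lyz2, at 1.84 in combination over poly I:C, also fell short of 2-fold, while Dusp2, Jdp2 and Ms4a6c stayed past it in both. No gene was lower with phenformin on both backgrounds at this threshold, of 19 and 42 lower on each, and 9 genes were opposite, among them Ccl17, Cxcl2 and Ctsl.

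Against control, the combination had its highest ratios in Lyz2, Chil3, Ms4a4c, Fxyd2, Ms4a6c, Rrad, Ccrl2, Cebpb, Ccl6 and Ccl5. In the combination Ccl5 was seen in 24 of 30 cells, Ccrl2 in 21 and Rrad in 19, and the top 3 cells held 60.1%, 55.0% and 43.2% of their UMIs. Lyz2 was seen in 12 of these 30 cells, with a median of 0 CPM. Only 3 cells were over 1000 CPM of Lyz2, at 7539, 5078 and 4510. Without the top cells, combination over control was 15.4 instead of 28.6 for Lyz2 and 2.66 instead of 5.36 for Ccl6. It was 10.01 instead of 13.2 for Ms4a4c and 12.4 instead of 10.5 for Ms4a6c. Chil3, a chitinase-like protein of monocytes and macrophages, was at 0 CPM in control, 2.31 in phenformin, 0 in poly I:C and 185 in the combination. Among the lowest ratios were those of Rnf217, Papss2, Tubb2b, Trim25, Ppfibp2, Setd5, Rlim, Helz2 and Blvrb, among which are the ubiquitin ligases Trim25 and Rlim. Over all 145 cells the ratio of Cebpb was 0.618, and Trim25 and Rlim were at 0.573 and 0.568.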

How the data were processed

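The deposited files are 10x matrices of raw UMI counts per gene and cell, per the file headers, and the submitters' processing notes list Cell Ranger 3.1.0 with the builds mm10 and GRCm38. Which annotation the authors used is not given in the sources used here. Printed positions are those of GENCODE vM21. Libraries held 59071838 to 77488625 UMIs and 6539 to 9303 barcodes, of which 5453 to 8268 per library were kept, at a median of 5901.5 to 8430 UMIs a cell. Between 11 and 29 barcodes were shared by a pair of libraries, and no member's barcode was shared. The members and gene lists were chosen with earlier results of these data known.

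No doublet caller was run; leaving out the 10% of members with most UMIs, and the keratin- or stroma-rich cells, are alternatives. UMI counts were summed over members of a library and scaled to 1000000 (CPM). With 1 library per treatment no count model was fitted: CPM have exact Poisson intervals, shares Clopper-Pearson intervals and ratios exact conditional binomial intervals, all at 95%, for counting error only. UMIs at 0 were set to 3 counts for a ratio. Comparison cells were defined by UMI counts of their own markers. Genes named are the 10 with the highest and lowest ratios in a comparison of combination over control, those on the same side in both comparisons of an agent (up to 10 each way, by the smaller log2 ratio), compared members of gene lists, and the 20 with the highest smallest ratio over other cells; genes opposite in the 2 comparisons of an agent, and genes of the cell in which interferon genes were highest, were chosen after their values were seen. On simulated Poisson counts with 200 genes changed 4-fold, 100% were recovered in each comparison, and 0.887% to 1.76% of the unchanged genes were called. The changed genes were drawn from those of at least 200 CPM. The simulated counts held no variation between cells or libraries, so these rates cover counting error only. Python 3.11.15, numpy 2.4.6, scipy 1.17.1 and pandas 2.3.3 were used, and edgeR 4.0.16 in R 4.3.3 for TMM scaling factors only. Results on some genes are not reported here.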

Additional observations from a re-analysis of the deposited data

Results flagged for a closer look

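Differences between the backgrounds of an agent are given as values. They were not tested, since each treatment is 1 library. The 95% intervals of the 2 ratios, which cover counting error only, lay on opposite sides of 1 for each gene below.

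Ccl17 had opposite signs for both agents. For poly I:C its log2 ratio was 2.62 without phenformin and -2.07 with it in the 120 cells, and 3.20 and -2.16 in all 145. For phenformin it was 1.68 without poly I:C and -3.01 with it in the 120 cells, and 2.13 and -3.23 in all 145.

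Ccl22 passed 2-fold in both directions only with all 145 cells, at a log2 ratio of 1.01 for poly I:C without phenformin and -1.38 with it.

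Ccl5 in the 120 cells went the other way, at -1.14 for poly I:C without phenformin and 2.51 with it. Epsti1 did so too, at -1.46 and 1.53.

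Tnfrsf18, which encodes the receptor GITR, was opposite for phenformin in all 145 cells, at 1.48 without poly I:C, and a ratio of 0.499 with it.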

How the results depend on the processing

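No paired analysis was possible because each treatment is 1 library and the labels carry no replicate numbers. With 24 to 50 members a library, depth limits comparison to genes of at least 50 CPM. Ratios and list medians that were past 2-fold over all 145 cells kept their direction under every alternative except those named here; the cause of each change was not tested beyond what the alternative itself leaves out.

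The control share by the rule, 0.820%, became 1.39% with H2-Ab1 of at least 1 UMI (combination 0.689%), 0.591% with Ccr7 of at least 2, 0.492% with at least 2 of the 3 other markers (combination 0.242%), 0.488% thinned to 3000 UMIs (phenformin 0.495%, poly I:C 0.342%, combination 0.355%) and 0.607% without keratin- or stroma-rich cells.

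Genes higher and lower over all 145 cells numbered 71 and 399 in poly I:C over control, 95 and 118 in combination over phenformin, 68 and 211 in phenformin over control, 130 and 45 in combination over poly I:C, 79 and 220 in combination over control, 7 and 18 in both comparisons of poly I:C, and 6 and 1 in both of phenformin. In that order, at 20 CPM and 10 UMIs they were 230 and 1126, 432 and 407, 222 and 670, 675 and 251, 305 and 710, 28 and 80, and 26 and 27. At 1.5-fold they were 246 and 819, 337 and 341, 250 and 515, 389 and 166, 287 and 521, 36 and 82, and 23 and 10. H2-Ab1 of at least 10 moved the lower genes of combination over poly I:C to 72. With at least 2 of the 3 other markers, poly I:C over control had 236 lower, combination over phenformin 56 higher, combination over poly I:C 68 higher, poly I:C in both 9 lower, and phenformin in both 12 higher and 22 lower. TMM scaling gave 125 higher in poly I:C over control, 118 higher in phenformin over control and 2 lower with phenformin in both. A mean over cells gave 355 lower in combination over control, 29 lower with poly I:C in both and 5 lower with phenformin in both.

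Without the cell with most UMIs of each gene, 44 were higher in poly I:C over control, 45 in combination over phenformin, 43 in combination over control and 2 with poly I:C in both, and 2 were lower with phenformin in both. Without the 10% of members with most UMIs, 358 were lower in phenformin over control and 513 in combination over control, and 12 were higher and 8 lower with phenformin in both. Without keratin- or stroma-rich cells, an alternative added after seeing the data, 180 were lower in poly I:C over control, 68 in phenformin over control, 122 in combination over control, 3 with poly I:C in both and 0 with phenformin in both (no test was run). With each gene's top cell left out too, poly I:C over control had 35 and 196, combination over phenformin 45 higher, phenformin over control 43 and 50, combination over poly I:C 76 and 20, combination over control 43 and 108, poly I:C in both 1 and 6, and phenformin in both 0 lower.

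Without keratin- or stroma-rich cells the Cxcl9 ratio turned to 3.26 in poly I:C over control (3.63 without the top cell, 3.30 with TMM, 2.94 as a mean over cells), 4.23 in phenformin over control (4.39, 4.50 and 3.26) and 2.73 in combination over control (2.32, 2.73 and 2.21), and Cxcl10 in phenformin over control to 4.65 (2.19, 4.94 and 5.73). In these cells Cxcl10 had 0 UMIs in control, set to 3 counts for a ratio, and 17 in phenformin. Its ratio there is thus under the level for comparison and rests on the counts set for control. Other named genes past 2-fold in the 120 cells were on the other side of 1 in all 145: Cxcl2 at 2.8 and 0.857 in poly I:C over control and 2.98 and 0.809 in phenformin over control, Pgam1 at 2.74 and 0.747 in poly I:C over control, Top2a at 13.1 and 0.601 in phenformin over control, Cebpb at 2.84 and 0.900 in phenformin over control, 2.21 and 0.687 in combination over phenformin and 6.29 and 0.618 in combination over control, and mt-Nd2 just past 2-fold and at 0.999 in phenformin over control. Cxcl10 in combination over control, likewise under the level for comparison in the 120 cells and resting on the counts set for control, was 10.0 and 0.626. Jdp2 in combination over poly I:C turned to 0.910 with H2-Ab1 of at least 10. The median log2 ratio of proliferation genes in combination over control turned to 0.16 with at least 2 of the 3 markers, and that of monocyte and macrophage genes to 1.21 in poly I:C over control and 0.56 in phenformin over control at 20 CPM and 10 UMIs.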

Other observations

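Genes of stress and metabolism were not described above. Of 30 glycolysis and hypoxia genes, 13 were compared in phenformin over control in the 120 cells and none reached 2-fold, with a median log2 ratio of 0.09 against -0.03 over all genes. In poly I:C over control 1 of 11 was higher, the glycolytic mutase Pgam1, and 1 lower, Pfkfb3, which makes an activator of glycolysis. Of 25 genes of the integrated stress response, 7 were compared in phenformin over control, with Cebpb and Ddit4, an inhibitor of mTORC1, higher and none lower. Over all 145 cells both gave way to Ddit3, Gars and Phgdh, 3 genes lower in phenformin over control, with none higher. Among 27 heat shock and immediate early genes, none of 13 compared reached 2-fold in phenformin over control and none of 12 in poly I:C over control. With the keratin-rich cells in, 4 of 22 and 5 of 21 were lower, Hspa1a, Hspb1 and Hsph1 in each.

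Of 10 survival genes compared in combination over phenformin, Casp8 alone was lower and none was higher. Mki67 and Top2a, markers of dividing cells, were higher in phenformin over control and lower in combination over phenformin. Of the 120 cells 4 had 5 or more of their UMIs, 3 of them in the phenformin library. Over all 145 cells neither was higher in phenformin over control, at 1.46 and 0.601.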
